A study of Mus musculus with 6 samples.

Results

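The genes described here are 8 genes of fat cells: Adipoq, Plin1, Cfd, Cidec, Fabp4, Retn, Car3 and Pparg. They are 8 of 22040 genes in the authors' table and were picked by symbol because their read counts had stood out in the library IR24h 2, so the counts themselves chose them and their levels are given as a description. Gene expression was measured by bulk RNA-seq of total RNA from the renal cortex of wild-type C57BL/6 mice, an inbred laboratory strain. The 3 sham libraries (sham 1 to 3) come from mice labelled sham. The 3 injured libraries (IR24h 1 to 3) come from mice whose renal pedicles, the stalks that carry the kidney vessels, were clipped on both sides for 30 min, with the tissue taken 24 h after reperfusion, a model of acute kidney injury. No group carried a transgene, a deletion or a drug in the labels, and the labels used here state neither age nor sex, nor whether each library is 1 mouse. Any p-value below thus measures the spread between these libraries, which may be technical.

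White adipocytes store triglyceride in a large lipid droplet and secrete hormones. PPARG, a nuclear receptor, drives their differentiation together with C/EBP factors. PLIN1 and CIDEC coat the droplet, FABP4 carries fatty acids in the cytosol, and adiponectin (Adipoq), resistin (Retn), leptin (Lep) and complement factor D (Cfd, adipsin) are secreted. Fat lies around the kidney and in its sinus, while the cortex itself normally holds few adipocytes. Outside fat, Fabp4 and Pparg are also used by capillary endothelium and macrophages, and Car3, a cytosolic carbonic anhydrase, is abundant in muscle.

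The description as genes of 1 injured library held for 3 of the 8 genes, Adipoq, Plin1 and Retn, which were counted almost only in IR24h 2. It held in part for Cfd and Cidec, which were highest there but were also counted in IR24h 1, and it did not hold for the other 3. Fabp4 and Pparg stood at about the same level in all 3 injured libraries, above sham. Car3 was abundant in sham cortex as well as in IR24h 2, and low in IR24h 1 and 3. The 8 genes therefore differ in pattern across the same 6 libraries.

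Library totals were 12877853 to 17061844 counts. Mitochondrially encoded genes took 13.1 to 14.2% of the counts in sham and 68.9, 26.2 and 49.2% in IR24h 1, 2 and 3, so the part of each library left for other genes differed, and levels are given as CPM, the usual depth-scaled counts, after edgeR's TMM normalization, which matches libraries on the bulk of their genes. Across genes, log2(CPM + 1) of IR24h 2 correlated with the sham libraries at r = 0.864 to 0.877 and with IR24h 1 and 3 at 0.831 and 0.841, while IR24h 1 and 3 correlated with sham at 0.770 to 0.818 and with each other at 0.927. Genes are not independent replicates, and no p is attached to these values. The defining genes of renal cortex were present in every library: Lrp2, the endocytic receptor megalin of the proximal tubule, had 1637 to 2361 CPM in sham and 230, 987 and 237 CPM in IR24h 1 to 3, and the 10 renal cortex markers summed to 20470 to 25510 CPM in sham and to 14560, 9192 and 19300 CPM in IR24h 1 to 3.

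The sequences before the start sites of 4 genes are shown because these genes carry the pattern of IR24h 2 in its clearest form: Adipoq, Plin1 and Retn, and Lep, which is no member of the set but had the same distribution of counts. Each runs over the 250 bases before the start (RefSeq, GRCm38.p6), at chr16:23146286-23146535 on the plus strand for Adipoq, chr7:79732777-79733026 on the minus strand for Plin1, chr8:3655520-3655769 on the plus strand for Retn and chr6:29059971-29060220 on the plus strand for Lep. Capitals mark matches to CCAAT in Adipoq and to TTNNGCAA, a form bound by C/EBP factors, in Plin1 and Lep, each read on both strands. For Plin1 the GENCODE start lies farther upstream than the RefSeq start, at 79732903, inside the window. The Plin1 match at −58 to −51 therefore falls within the gene as GENCODE gives it.
Adipoq: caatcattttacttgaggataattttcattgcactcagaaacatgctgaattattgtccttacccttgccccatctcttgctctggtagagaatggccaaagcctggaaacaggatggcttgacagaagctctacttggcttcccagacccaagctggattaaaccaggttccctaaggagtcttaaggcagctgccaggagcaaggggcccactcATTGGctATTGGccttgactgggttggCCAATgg
Plin1: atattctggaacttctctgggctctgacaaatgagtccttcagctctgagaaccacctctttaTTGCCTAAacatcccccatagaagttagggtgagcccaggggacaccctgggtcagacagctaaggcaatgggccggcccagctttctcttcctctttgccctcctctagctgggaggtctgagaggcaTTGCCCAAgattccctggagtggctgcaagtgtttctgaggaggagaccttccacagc
Retn: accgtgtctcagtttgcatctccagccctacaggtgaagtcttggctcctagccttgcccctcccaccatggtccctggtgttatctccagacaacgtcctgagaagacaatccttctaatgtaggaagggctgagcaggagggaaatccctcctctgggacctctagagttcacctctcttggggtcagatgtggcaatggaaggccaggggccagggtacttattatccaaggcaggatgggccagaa
Lep: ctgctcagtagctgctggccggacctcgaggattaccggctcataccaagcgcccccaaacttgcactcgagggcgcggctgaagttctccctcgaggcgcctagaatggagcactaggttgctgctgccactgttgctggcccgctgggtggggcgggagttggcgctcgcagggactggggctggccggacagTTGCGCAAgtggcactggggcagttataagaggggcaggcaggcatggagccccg
Adipoq held 3 CCAAT matches, all within 34 bases of the start, Plin1 held 2 TTNNGCAA matches, and the match in Lep reads the same on both strands. Retn held no match to these motifs, to TATAAA or to AGGTCA, the core motif of nuclear receptors. Of 32851 mouse windows of the same length, 9.56% held TTNNGCAA, 33.8% CCAAT, 12.4% TATAAA and 14% AGGTCA. The table has start sites for 6 of the 8 members, none for Fabp4 or Car3. TTNNGCAA was present in Cidec, Plin1 and Pparg, AGGTCA in Pparg, and DR1, the direct repeat of AGGTCA with 1 base between that PPARG reads with its partner RXR, in 0 of the 6 and in 0.0335% of all windows. A match is a description of letters and not a binding site.

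Adipoq encodes adiponectin, a secreted hormone whose transcript is regarded as specific to adipocytes. It lies on chromosome 16 from 23146536 to 23158028 (GRCm38). Its counts were 0, 0 and 0 in sham 1 to 3, 0 in IR24h 1, 313 in IR24h 2 and 3 in IR24h 3, or 16 CPM in IR24h 2 and 0.262 CPM in IR24h 3. IR24h 2 was thus the only library with more than 3 counts. Against the sham libraries, where 3 counts over the group are taken as the limit of a count of 0, it was at least 303-fold higher, and against IR24h 1 at least 37.5-fold. The ratio to IR24h 3 was 61 (95% counting interval 20.7 to 298). The source of these counts, from the sampled cortex or from outside it, was not tested, and this holds for every gene counted in IR24h 2 alone. Such intervals and limits account for counting error and nothing else, because PCR copies are not separate molecules, and 1 library allows no replicate check.

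Plin1 (chromosome 7, 79720218 to 79732903) encodes perilipin 1, which coats the adipocyte lipid droplet and controls lipase access to it. Its 247 counts all fell in IR24h 2, with 0 counts in each of the other 5 libraries. This amounts to 12.6 CPM, at least 239-fold above sham, 29.6-fold above IR24h 1 and 48.1-fold above IR24h 3. Retn (chromosome 8, 3655770 to 3660110), the gene of resistin, a small secreted protein that mouse adipocytes make, had the same distribution at a lower level, with 31 counts (1.58 CPM) in IR24h 2 and 0 elsewhere. Its bounds were at least 30-fold above sham, 3.72-fold above IR24h 1 and 6.04-fold above IR24h 3, so for the injured libraries its depth allows much less to be said than for Plin1.

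**Figure D1:**
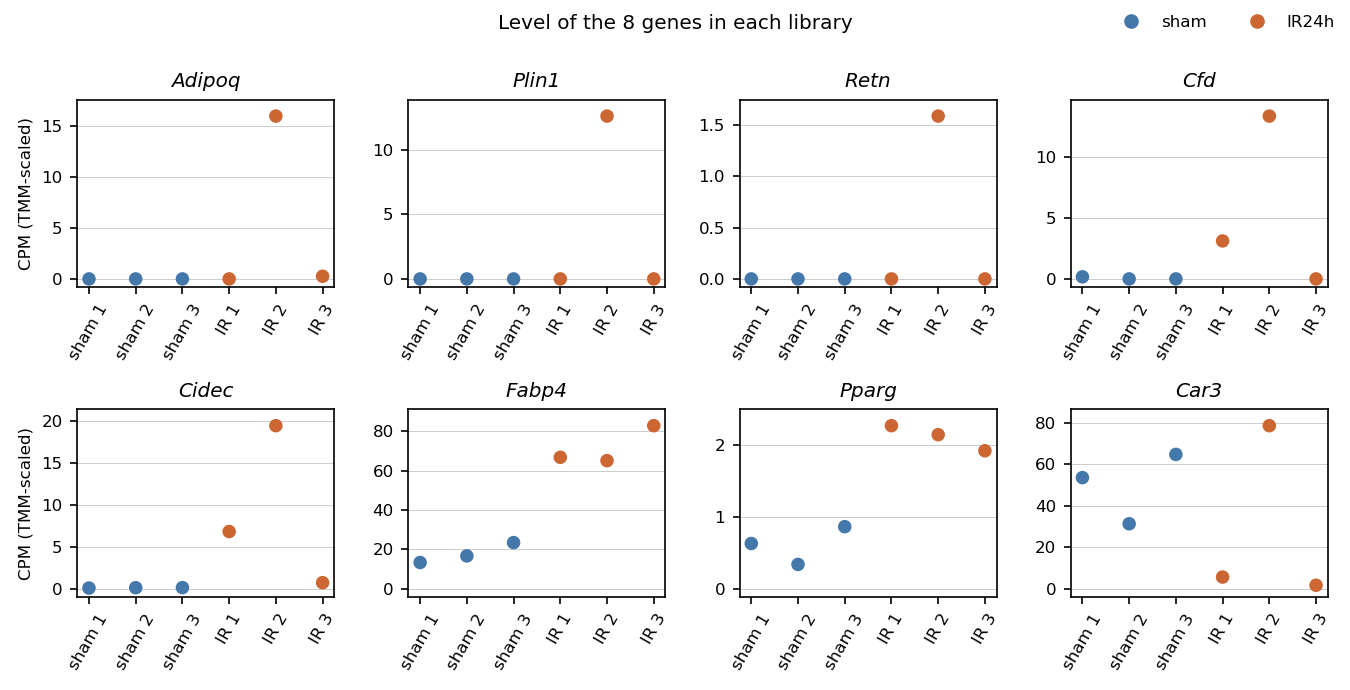
Level of each of the 8 genes (vertical axis, CPM after TMM scaling, each panel with its own range) in the 3 sham (blue) and 3 IR24h (orange, labelled IR) libraries on the horizontal axis; each point is 1 library. Adipoq, Plin1 and Retn stand above 1 CPM in IR24h 2 alone, Cfd and Cidec are also seen in IR24h 1, Fabp4 and Pparg are raised in all 3 injured libraries, and Car3 is low in IR24h 1 and 3.

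Cfd encodes complement factor D, the serine protease that cleaves factor B in the alternative pathway (chromosome 10, 79890853 to 79892655). It had 3, 0 and 0 counts in sham 1 to 3 and 22, 262 and 0 counts in IR24h 1 to 3, which is 0.171, 0 and 0 CPM and 3.13, 13.4 and 0 CPM. IR24h 2 was highest and IR24h 1 second, above sham, while IR24h 3 lay at 0 with 2 of the sham libraries. The ratio of IR24h 2 was 254 to the pooled sham libraries (95% counting interval 85.9 to 1239), 4.29 to IR24h 1 (2.77 to 6.96) and at least 51.1 to IR24h 3.

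Cidec (chromosome 6, 113424634 to 113435760) encodes a protein that fuses small lipid droplets into large ones. The sham libraries held 1, 2 and 2 counts, and IR24h 1 to 3 held 48, 381 and 8, or 0.0571, 0.0962 and 0.108 CPM and 6.82, 19.5 and 0.699 CPM. All 3 injured libraries lay above all 3 sham libraries, but IR24h 3 did so by few counts. The same order held for 19.9% of the genes tested, which Cidec is not among. IR24h 2 exceeded sham 221-fold (94.1 to 686), IR24h 1 2.86-fold (2.11 to 3.94) and IR24h 3 27.9-fold (14 to 65).

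The mix of the members' counts is given as a description, since the same counts chose the genes. In IR24h 2, Plin1 made up 39.3% of the summed Plin1 and Cidec counts (247 of 628, exact 95% binomial interval 35.5 to 43.3%), whereas IR24h 1 had 0 of 48, which allows a share of up to 6.25%. Where a count is 0, here and below, the share allowed takes 3 counts as the limit. The exact interval reaches higher, to 7.4% for 0 of 48. Adipoq made up 54.4% of the Adipoq and Cfd counts in IR24h 2 (313 of 575, 50.3 to 58.6%), against 0 of 22 in IR24h 1, which allows 13.6%. In IR24h 1, then, Cidec and Cfd were counted and Adipoq and Plin1 were not. In IR24h 3 Adipoq was 3 of 11 Adipoq and Cidec counts (27.3%, 6.02 to 61%), a share whose interval holds the 45.1% (313 of 694) of IR24h 2.

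Fabp4 encodes the fatty acid-binding protein of adipocytes, capillary endothelium and macrophages (chromosome 3, 10204088 to 10208576). It had 13.2, 16.6 and 23.4 CPM in sham 1 to 3 (232, 345 and 433 counts) and 66.8, 65.1 and 82.9 CPM in IR24h 1 to 3 (470, 1273 and 948 counts), or 17.7 ± 5.15 and 71.6 ± 9.82 CPM (SD, n = 3). All injured libraries lay above all sham libraries, as they did for 19.9% of the genes tested, and IR24h 2 was the lowest of the 3. In GENCODE M21 an annotated transcript covers the whole gene, introns included, and whether the authors' counting used it is not known. Adipoq was 19.7% of the Adipoq and Fabp4 counts in IR24h 2 (17.8 to 21.8%), but 0 of 470 in IR24h 1 and 0 of 1010 over the sham libraries, which allows 0.638 and 0.297%.

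Pparg, the gene of the nuclear receptor (chromosome 6, 115360951 to 115490399), had 0.628, 0.337 and 0.863 CPM in sham (11, 7 and 16 counts) and 2.27, 2.15 and 1.92 CPM in IR24h 1 to 3 (16, 42 and 22 counts). All injured libraries lay above all sham libraries, as for 19.9% of the genes tested. The intervals between the injured libraries included 1: the ratio of IR24h 2 was 0.945 to IR24h 1 (0.52 to 1.8) and 1.12 to IR24h 3 (0.652 to 1.96). Its raw count was highest in IR24h 2.

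The place of IR24h 2 among the injured libraries depended on the scaling for these 2 genes. With library size as the only scaling, Fabp4 had 36.5, 79.7 and 71.4 CPM and Pparg 1.24, 2.63 and 1.66 CPM in IR24h 1 to 3, with IR24h 2 highest for both. Cidec and Cfd were highest in IR24h 2 under either scaling, and the distance to IR24h 1 grew to 6.39-fold for Cidec (4.72 to 8.82) and 9.59-fold for Cfd (6.2 to 15.6) with library size alone. Scaling by library size alone shifted the median gene between IR24h and sham from a log2 fold change of 0.05 to −0.39.

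**Figure D2:**
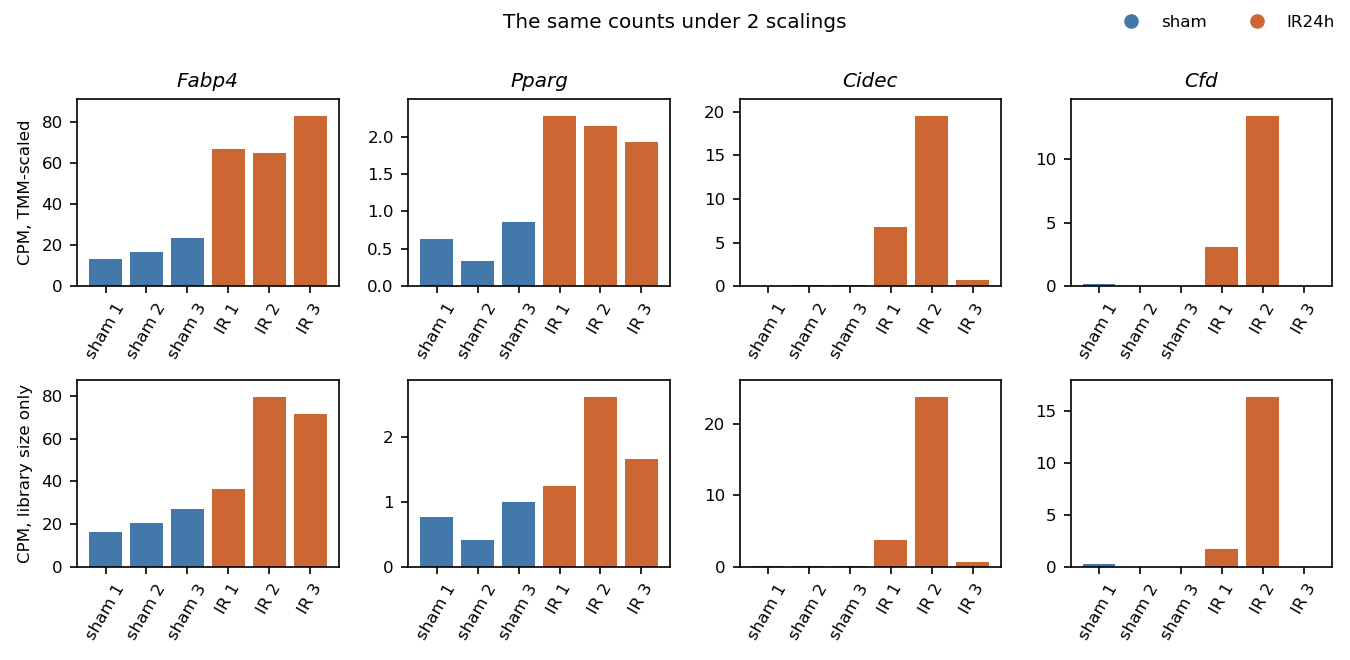
CPM of Fabp4, Pparg, Cidec and Cfd (bars, 1 per library, blue sham and orange IR24h, labelled IR; each panel has its own range) with TMM scaling in the upper row and library size as the only scaling in the lower row. Fabp4 and Pparg are level across the injured libraries above (65.1 to 82.9 and 1.92 to 2.27 CPM) and uneven below (36.5 to 79.7 and 1.24 to 2.63 CPM), whereas Cidec and Cfd peak in IR24h 2 in both rows.

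Car3, the gene of carbonic anhydrase 3 (chromosome 3, 14863512 to 14872523), had 53.6, 31.3 and 64.8 CPM in sham and 5.54, 78.7 and 1.57 CPM in IR24h 1 to 3, with 939, 651 and 1202 counts and 39, 1540 and 18 counts behind them. IR24h 2 was 1.6 times the pooled sham libraries (1.51 to 1.71), 14.2 times IR24h 1 (10.4 to 20.1) and 50 times IR24h 3 (31.5 to 84.7). IR24h 2 was thus far above the other injured libraries and slightly above sham. Its sham counts came with 0 Adipoq counts in 2792 Adipoq and Car3 counts, which allows 0.107%, against 16.9% in IR24h 2 (15.2 to 18.7%). Of the other 15 carbonic anhydrase genes, 12 were tested, of which 1 (Car13) rose, 3 (Car4, Car9 and Car14) fell and 8 were not called. Over all genes tested, 8.65% were called higher and 7.62% lower. Car4, Car9 and Car14 were low in IR24h 2 as well, at 16.7, 2.56 and 6.8 CPM against sham means of 168, 15.8 and 169 CPM. Car12, not called, had 46.4, 147 and 40.8 CPM in IR24h 1 to 3 (sham mean 278 CPM). A level nearer sham in IR24h 2 than in IR24h 1 and 3 was also seen outside the family. Ppara had 3.69, 43.2 and 1.66 CPM in IR24h 1 to 3 (sham mean 38.6 CPM). For Gpd1 it was 175, 428 and 107 CPM (sham mean 443 CPM). These last 3 genes were named after their values were seen.

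Per length of gene, Car3 led the 8 genes in IR24h 2 with 25.9 FPKM (the authors' counts per kilobase, scaled to library size). Fabp4 had 15.5, Cfd 13, Adipoq 12.2 and Cidec 7.29 FPKM there. Plin1 followed with 2.43, Retn with 1.13 and Pparg with 0.633 FPKM. The gene lengths behind the FPKM values, recovered from count and FPKM, were longer than the annotated exons (6363 against 4649 bases for Plin1), so this order rests on the authors' lengths. The implied length did not differ between sham and IR24h for the 5 members with counts in both. No member shared more than 0.19% of its 50-base stretches with transcripts of another gene, and none had exon bases that overlap another gene.

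Only Fabp4, Pparg and Car3 passed edgeR's filter on low counts, which asks for enough counts in 3 libraries, and the 5 genes found mainly in IR24h 2 did not. In the comparison of IR24h with sham over 13609 genes (quasi-likelihood test of edgeR, p-values adjusted by Benjamini-Hochberg, threshold 0.05), 8.65% of genes were called higher and 7.62% lower. Fabp4 (log2 fold change 2.01 ± 0.30, SE) and Pparg (1.79 ± 0.48) were among the higher ones and Car3 (−0.79 ± 1.16) was not called. The members were chosen on these libraries, so nothing is read from that count. The call of Pparg was lost when any 1 library other than IR24h 2 was left out, and that of Fabp4 without sham 2. Both were lost with library size as the only scaling. Without IR24h 2 the log2 fold change was 2.07 for Fabp4, 1.77 for Pparg and −3.88 for Car3, and Car3 was then called lower. With IR24h 2 as the only injured library, whose spread is then taken from the sham libraries, it was 1.89, 1.83 and 0.67, and Car3 was not called.

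A level at least 4-fold above that in every other library (on CPM + 1) was reached in IR24h 2 by 21 of 17245 genes with at least 1 count, 0.122%, among them Adipoq and Plin1. Among genes that passed the filter it was 12 of 13609, 0.0882%, with no member. IR24h 2 was the highest library for 6 of the 8 members and for 22.0% of genes with at least 1 count (22.9% of genes tested). On CPM + 0.25, which weighs low levels more, 40 of the 17245 genes and 4 of the 8 members reached it. These shares describe the pattern by which the genes were chosen.

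The genes of white adipocytes outside the set were split in the same way. Lep, which encodes the hormone leptin, had 435 counts (22.2 CPM) in IR24h 2 and 0 in each other library, at least 421-fold above sham, 52.2-fold above IR24h 1 and 84.8-fold above IR24h 3. Plin4, a perilipin of adipocytes and muscle, had 1.73 to 2.26 CPM in sham and 11.4, 44.3 and 3.23 CPM in IR24h 1 to 3, and the gene length implied by its counts and FPKM differed between the groups by −0.51 on the log2 scale (IR24h minus sham). Acvr1c, an activin-type receptor of fat, had 35 counts in IR24h 2 and 0 elsewhere, and Scd1, a fatty acid desaturase, had 55.2 to 103 CPM in sham and 72.3, 391 and 34.9 CPM in IR24h 1 to 3 (both named after their values were seen). Others of the 34 genes were not raised in IR24h 2: Adig, a small adipocyte protein, had 3 counts there and 2 in sham 1. Slc2a4, the insulin-regulated glucose transporter of fat and muscle, had 8.79 CPM in IR24h 2, the lowest of the 6 libraries, against 25.1 to 39.5 CPM in the others; these last genes were also named after their values were seen. IR24h 2 was the highest library for 15 of the 34 genes and the lowest for 4, beside 22.0% highest among all genes with at least 1 count and 22.4% lowest among genes tested.

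In the comparison of IR24h with sham, 29 of these 34 genes were tested, of which 4 rose, 4 fell and 21 were not called, with a median log2 fold change of −0.18 against 0.05 over all genes (8.65% of all genes higher and 7.62% lower). Those that rose were Plin4 (3.26 ± 0.87, SE; adjusted p = 0.0428, edgeR), Sncg, a synuclein of adipocytes and nerve (2.08 ± 0.55; 0.0408), G0s2, an inhibitor of the triglyceride lipase ATGL (1.60 ± 0.37; 0.0269), and Hp, the haemoglobin-binding haptoglobin (5.62 ± 0.8; 0.00578). Those that fell were the lipoprotein lipase gene Lpl (−0.98 ± 0.25; adjusted p = 0.0379, edgeR), the triglyceride synthase Dgat2 (−2.31 ± 0.56; 0.0314), and the transcription factors Cebpa (−1.34 ± 0.26; 0.016) and Klf15 (−2.43 ± 0.33; 0.00502). Most of the 8 are used well outside fat, and of the 4 that rose only Plin4 and Hp were highest in IR24h 2. Without IR24h 2 there were 14 calls, 4 higher and 10 lower, and the log2 fold change of Plin4 was 1.79 (adjusted p = 0.0286, edgeR), with 23.9% of all genes called higher and 24.5% lower. Leaving out any 1 sham library left 2 calls, Klf15 and Hp, and library size as the only scaling left the same 2. Fewer cells of a type and less RNA per cell cannot be told apart in bulk tissue.

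**Figure D3:**
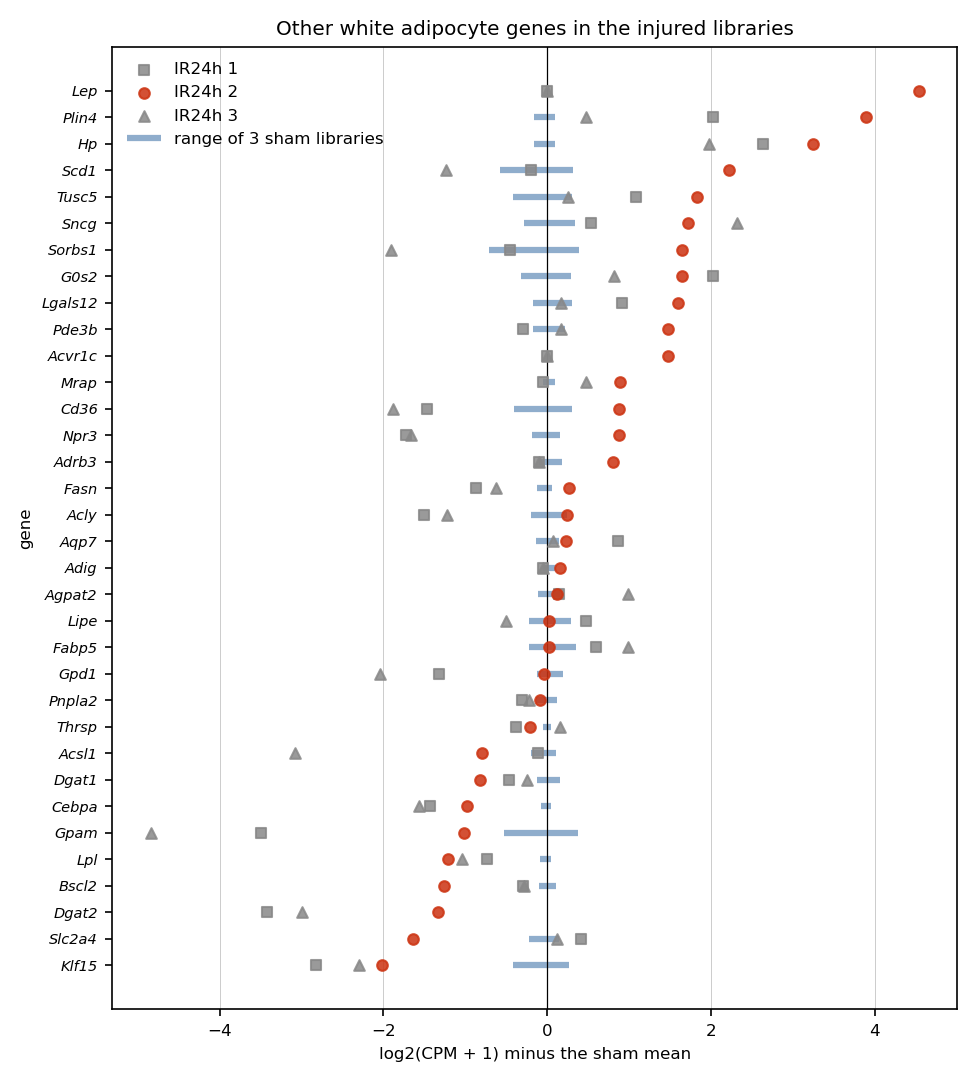
Level of the 34 other white adipocyte genes in each injured library (horizontal axis, log2(CPM + 1) minus the sham mean; square IR24h 1, red circle IR24h 2, triangle IR24h 3), with the range of the 3 sham libraries as a blue bar. Genes are ordered by IR24h 2, from Lep and Plin4 at the top to Klf15 at the bottom; the 3 injured libraries lie together for Klf15 and Cebpa and apart for Lep, Plin4 and Scd1.

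Of 15 genes listed for heat-producing brown fat, 8 stayed under 1 CPM in every library, and the abundant ones are also used by kidney. IR24h 2 was the highest library for 7 of the 15, each at low counts. Ucp1, the uncoupling protein that defines brown adipocytes, had 1 count in IR24h 2 and 0 elsewhere. Slc36a2, an amino acid transporter, had 21 counts in IR24h 2 and at most 2 in any other library, and was named after its values were seen. Of 6 tested, 1 fell and 5 were not called, where 8.65% of all genes tested were called higher and 7.62% lower. The one that fell was the glycerol kinase Gk (526 ± 36.6 CPM in sham and 141 ± 49.6 CPM in IR24h, SD, n = 3; adjusted p = 0.0116, edgeR), and the next most abundant, the coactivator Ppargc1a and the carrier Fabp3, had 54.3 and 46.8 CPM on average in sham. Of adipose stroma and progenitor genes, which kidney stroma also uses, 2 of 9 tested rose (Pdgfrb and Pdgfra), 1 fell (Ly6a) and 6 were not called. In IR24h 2 Pdgfra stood at 17.1 CPM, between sham (6.15 to 9.52 CPM) and the other injured libraries (198 and 54 CPM).

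Beside 8.65% of all genes called higher and 7.62% lower, 2 of 15 tested regulators and partners of PPARG rose and 13 were not called. They were Klf5, a Krüppel-like factor (0.725 ± 0.0932 to 15 ± 4.11 CPM, adjusted p = 0.00107, edgeR), and Ebf1, an early B-cell factor that acts in adipocyte precursors (2.39 ± 0.615 to 6.16 ± 1.54 CPM, adjusted p = 0.0485), both with IR24h 2 as the lowest injured library. Rxra, the partner of PPARG on DNA, had 150 to 164 CPM in sham and 14.3, 90.3 and 54.2 CPM in IR24h 1 to 3 (adjusted p = 0.101, edgeR). Of 5 genes of hormone reception (Adipor1, Adipor2, Cdh13, Lepr and the adaptor Appl1), all were tested and none was called. Lepr and Cdh13 were called higher without IR24h 2 (log2 fold changes 4.57 and 1.93, adjusted p = 0.000448 and 0.00554, edgeR). In that fit 23.9% of all genes tested were called higher and 24.5% lower. Adipor1 and Adipor2, the adiponectin receptors, had 138 ± 5.33 and 76.1 ± 1.8 CPM in sham and 97.7 ± 9.82 and 68 ± 23.1 CPM in IR24h (SD, n = 3). The leptin receptor gene Lepr, named after its values were seen, had 1.49 to 1.78 CPM in sham and 55.7, 0.92 and 23.1 CPM in IR24h 1 to 3 (adjusted p = 0.0562, edgeR). Its level in IR24h 2, the library with Lep counts, was the lowest of all 6 but near sham, at 18 counts against 29 to 33 in the sham libraries. IR24h 2 was the lowest library for 22.4% of genes tested.

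Of the 7 partners of factor D in the alternative complement pathway, C3, the central component, rose (17.6 ± 3.13 to 301 ± 121 CPM, adjusted p = 0.00151, edgeR), Cfb, its substrate factor B, fell (434 ± 42.4 to 145 ± 39.1 CPM, adjusted p = 0.0143) and 5 were not called. C3 was highest in IR24h 2 (416 CPM), and Cfb lay between the other injured libraries there (156 CPM). Over all genes tested, 8.65% were called higher and 7.62% lower. The lipid droplet paralogs Plin2, Plin3, Plin5 and Cideb were tested and none was called. Plin2, the perilipin of most cells other than adipocytes, had 80.2 to 103 CPM in sham and 146, 631 and 125 CPM in IR24h 1 to 3 (adjusted p = 0.104, edgeR). Its level in IR24h 2 was 6.8 times that in sham (6.59 to 7.03), against 12352 counts of Plin2 for 247 of Plin1. Of the 5 fatty acid-binding paralogs listed here (Fabp1, Fabp2, Fabp6, Fabp7 and Pmp2), 2 were tested. Fabp1 rose (0.393 ± 0.201 to 2.23 ± 1.14 CPM, adjusted p = 0.0368, edgeR) and Fabp7 fell (7.06 ± 1.03 to 1.39 ± 0.918 CPM, adjusted p = 0.0217). The paralogs Fabp5 and Fabp3, placed on the white and brown fat lists, were tested and not called (adjusted p = 0.277 and 0.61, edgeR). No resistin paralog passed the filter; Retnla had 20 counts in IR24h 2, 1 in IR24h 1 and 0 elsewhere, and Retnlg was highest in IR24h 1 (18 counts).

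Cell types that share Fabp4 and Pparg with fat did not follow the 5 genes of IR24h 2. All 8 endothelial markers were lowest in IR24h 2, where they summed to 84.2 CPM, against 277 to 308 CPM in sham and 404 and 346 CPM in IR24h 1 and 3. Their share in the level of Fabp4 was not tested. Of 8 tested endothelial genes 1 fell (Kdr) and 7 were not called, where 8.65% of all genes tested were called higher and 7.62% lower. The 8 macrophage markers summed to 67.8 to 76.9 CPM in sham and to 166, 90.7 and 232 CPM in IR24h 1 to 3. Of 7 tested, 3 rose (Lyz2, Cd68 and Itgam) and 4 were not called, and the part of macrophages in Fabp4 and Pparg was not tested either. Adgre1, among the 4 not called and named after its values were seen, went against the sum. It had 4.32 to 4.52 CPM in sham and 0.284, 3.63 and 0.35 CPM in IR24h 1 to 3. The sum therefore does not describe every marker on the list.

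Other tissues near the kidney were looked for in the same way. Of the 8 adrenal cortex genes, the defining Cyp11b1, Cyp11b2, Cyp11a1, Cyp21a1 and Nr5a1 were at 0 in all libraries. The other members were not all at 0. Star had 1.79 to 5.42 CPM over the 6 libraries, with IR24h 2 lowest. Mc2r had 8 counts in IR24h 2, 3 in sham 2 and 0 elsewhere, and Hsd3b1 had 1 count in sham 3. Of 6 adrenal medulla genes none reached 1 CPM. Of the 6 genes listed for acinar pancreas, Prss2, Cpa1, Pnlip and Ctrb1 were at 0 in all libraries, and Cel had 3 counts in sham 3 alone. Cela1, the only one tested, was well counted, with 73.4 to 93 CPM in sham and 10.9, 7.21 and 12.1 CPM in IR24h 1 to 3. It was called lower (adjusted p = 0.00146, edgeR), as were 7.62% of all genes tested. IR24h 2 was the highest library for none of the listed genes of mesothelium, urothelium, acinar pancreas, liver, lymphocytes or red cells. Skeletal muscle genes were seen in IR24h 2: the 8 listed summed to 22.4 CPM there, to 0.809 to 1.68 CPM in sham and to 2.27 and 4.11 CPM in IR24h 1 and 3. Myh4, the myosin heavy chain of fast muscle fibres, had 205 counts (10.5 CPM) in IR24h 2 and 0 elsewhere, at least 199-fold above sham, whereas Myh1, another fast myosin, had 2 counts. IR24h 2 was the highest library for 7 of the 8, beside 22.0% of genes with at least 1 count. Mylpf was higher in IR24h 3 (1.57 CPM) than in IR24h 2 (1.12 CPM). Actn3 was nearly level between IR24h 2 and IR24h 3 (1.84 and 1.75 CPM). Both were named after their values were seen. Car3 is abundant in muscle as well as fat, and the part of muscle genes in its level in IR24h 2 was not tested.

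**Figure D4:**
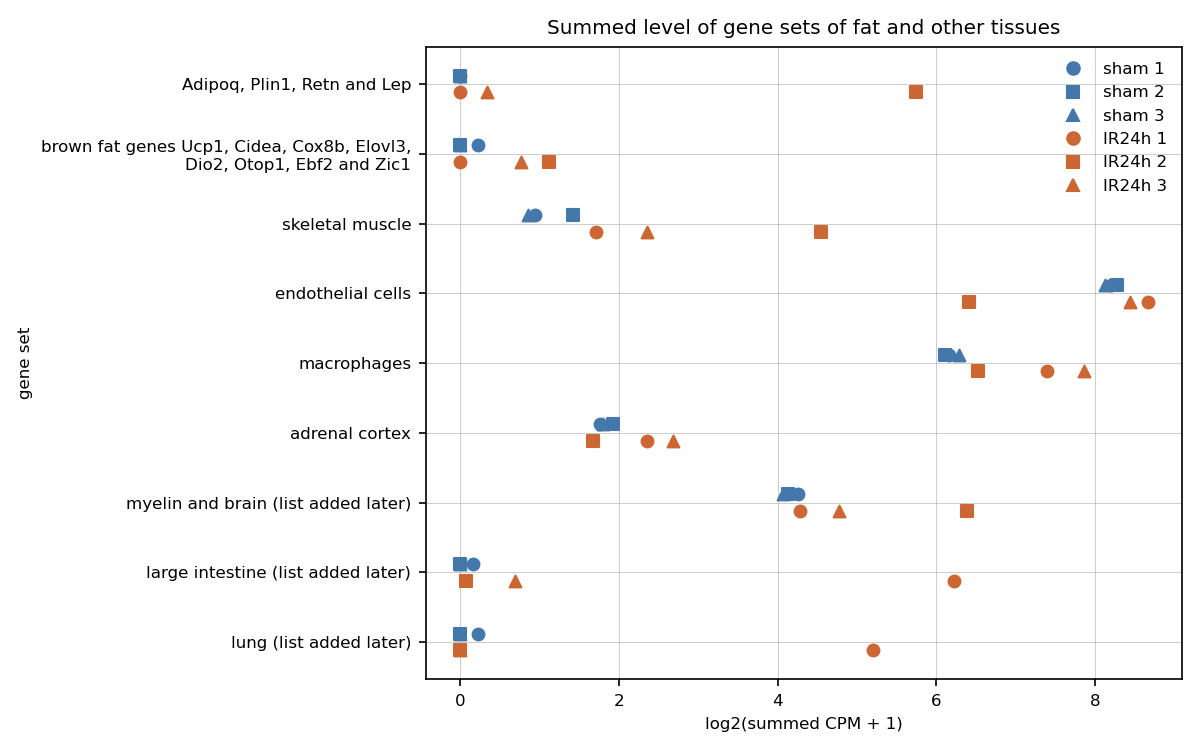
Summed level of gene sets (rows; horizontal axis, log2 of the summed CPM plus 1) in sham (blue) and IR24h (orange) libraries; the circle, square and triangle are libraries 1, 2 and 3 of each group. Adipoq, Plin1, Retn and Lep together reach 52.5 CPM in IR24h 2 and at most 0.262 CPM elsewhere, muscle genes are highest there too, and endothelial genes are lowest there; the last 3 sets were put together from genes already seen to be high in IR24h 2 or IR24h 1, so their peaks are a description.

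Likeness to the mean level of the 8 genes was measured as Pearson's r of log2(CPM + 1) over the 6 libraries. Candidates were 1820 genes that passed edgeR's filter on low counts. Their mean reached 1 CPM and their standard deviation on that scale reached 1. Genes counted only in IR24h 2, such as Lep and Myh4, did not pass that filter and so could not be among them. The 10 closest candidates were Plin2, Cbr3, Prkar2b, Cyp24a1, Fga, Aldh1a7, Plin4, Zfp36l1, Ctps and Prrg4 (r = 0.985 to 0.943). With 6 points, of which IR24h 2 stands apart, these values describe little more than a peak in that library, and no p is given. Plin2 and Plin4 were the only lipid droplet genes among them. Cyp24a1, which degrades vitamin D hormone, had 30.9 to 39.4 CPM in sham and 44.7, 792 and 36 CPM in IR24h 1 to 3. Fga, a fibrinogen chain, had 13.3 to 34.2 CPM in sham and 39.5, 557 and 42.9 CPM in IR24h 1 to 3. Prkar2b, a regulatory subunit of protein kinase A, had 0.286 to 0.917 CPM in sham and 2.27, 10.9 and 0.524 CPM in IR24h 1 to 3. The library IR24h 2 was thus high for genes of several kinds, fat among them.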

How the data were processed

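RNA-seq libraries of 3 sham and 3 IR24h mouse renal cortex samples were analysed. Per the file headers, the authors deposited raw read counts per gene and FPKM values. Per the submitters' processing notes, CASAVA 1.8 and TopHat2 2.0.6 were used, and mm10 and GRCh38 are named as builds; the sources used here give no read counter, strand setting or annotation. Of 22040 genes, 83 had no sham value and were left out. Members and gene lists were chosen with earlier results of these data known.

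Counts were tested with edgeR 4.0.16 (TMM, filterByExpr, quasi-likelihood, 2-sided; common biological coefficient of variation 0.394) in R 4.3.3, with limma 3.58.1 and DESeq2 1.42.0 as alternatives, and checked on simulated data. SEs come from the F statistic. All 8 members were matched to GENCODE M21 (GRCm38). Genes named are the members, the list genes called or 4-fold higher in IR24h 2, up to 3 abundant genes of each other list and the 10 most alike. Trarg1 is listed as Tusc5. Of 2 Itgam identifiers, GENCODE's was used. Figures used Python 3.11.15.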

Additional observations from a re-analysis of the deposited data

How the results depend on the processing

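Of 2214 genes called between IR24h and sham (1177 higher, 1037 lower), 8 were other white adipocyte genes. With library size as the only scaling the counts were 1009 (398 higher, 611 lower) and 2, with the DESeq2 Wald test 3768 and 11, and with IR24h 2 as the only injured library 5439 and 22, where the spread comes from the 3 sham libraries alone. Leaving out 1 library gave 458 to 6679 genes and 2 to 14 of the list; the highest values came without IR24h 2, and the lowest without a sham library. The cause was not tested. DESeq2 size factors, leaving out mitochondrial genes, no count filter and limma-voom stayed within 1.5 times. The labels state no pairing of libraries with the same number. Same-number correlations of deviations from the group means (−0.12, 0.15 and 0.29) cannot settle it, because such deviations are bound to each other within a group. With the replicate block 1657 genes and 7 of the list were called. Genes at least 4-fold higher in IR24h 2 numbered 12; 44 with library size as the only scaling, 21 with no count filter, 220 at 2-fold and 3 at 8-fold, and 13 to 30 without 1 of the other libraries (most without IR24h 1). The call of Pparg was lost under 8 of 14 alternatives and that of Fabp4 under 2, while Klf15 and Hp kept theirs under all 14. The log2 fold change of Car3 was −0.79, −3.88 without IR24h 2 (then called), −2.62 with the replicate block and 0.67 with IR24h 2 as the only injured library. Low counts limit Retn and Pparg most.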

Other observations

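A few genes were counted in 1 library and nearly nowhere else (at least 20 counts there and at most 3 over the other 5, a rule set after the values were seen). There were 0, 1 and 1 such genes in sham 1 to 3 and 14, 14 and 2 in IR24h 1 to 3. The 14 of IR24h 2 were led by Lep, Adipoq, Plin1, Myh4 and Mobp, and Retn and Acvr1c were among them. Mobp, a myelin protein of the central nervous system, had 112 counts in IR24h 2 and 0 elsewhere, and Gfap, the intermediate filament of astrocytes, had 215 counts there against 0 to 5 in the others. Mog, another myelin gene, had 8 counts in IR24h 2 and 0 elsewhere, while Mbp, the abundant myelin basic protein, had 12.6 CPM in IR24h 2 and 12.5 CPM in IR24h 3.

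Of the 14 genes of IR24h 1, several are known from intestine or lung. Muc2, the mucin of intestinal goblet cells, had 122 counts there, Car1, a carbonic anhydrase of colon and red cells, 106, and Sftpc, a surfactant protein of the lung, 104. By the rule that picked them these genes are near 0 in the other libraries. The source of the counts in either library was not tested and cannot be told from the table.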
